A study of Mus musculus with 10 samples.

Results

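RNA of Iqgap3-low cells from the corpus, the part of the stomach that makes acid, was compared between mice carrying the R122C form of RUNX3 and wild-type mice. The comparison covers the genes above a listed 0 in at least 2 of the 5 libraries of these cells, which are 15314 of the 55276 genes in the table. The R122C group (genotype Runx3 R122C;Iqgap3-2A-tdTomato) has 2 libraries, and the WT group (Runx3 WT;Iqgap3-2A-tdTomato) has 3. All mice were C57BL/6 animals of 6 to 8 weeks, and all of them, WT included, carried the reporter that places the red protein tdTomato behind Iqgap3, which encodes a scaffold protein. Single cells of digested corpus units were sorted as EpCAM-labelled cells without DAPI uptake, and the Iqgap3-low or -negative fraction is called IQ3neg here. A second fraction, Iqgap3-high (IQ3pos), was sorted from the same genotypes and is used here only where an IQ3neg result is set beside it. Each library holds RNA pooled from 3 mice, except WT replicate 2 with 4, so replicate error here is the spread between libraries of pooled mice. The sources used here do not say whether 1 or both copies of the gene carried R122C.

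RUNX3 belongs to the Runt family of transcription factors, which bind DNA through a Runt domain with CBFB as partner subunit and can activate or repress their targets. RUNX3 is studied in the stomach as a mediator of TGF-beta signals and as a tumour suppressor, and R122C is a change in the Runt domain known from a human gastric tumour. The corpus epithelium holds surface pit cells and mucous neck cells that make mucus, chief cells that make pepsinogen, parietal cells that make acid, enteroendocrine cells that make hormones, chemosensory tuft cells and dividing isthmus cells.

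The sequence around the labelled position is shown because the label R122C does not fall on an arginine in the mouse transcripts used for coordinates. In the transcript of 409 codons, the codon at the labelled position is CTG for leucine, and the next, codon 123, is CGC for arginine. The segment lies on the plus strand in exon 2 of 5 at chr4:135155330-135155395 (GRCm38), with these 2 codons in capitals.
Runx3: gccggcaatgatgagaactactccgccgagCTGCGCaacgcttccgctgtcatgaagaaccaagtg
In the longer transcript of 423 codons, the labelled position is GTG for valine. The sources used here do not name the reference that the label's numbering follows. The deposited values are per gene and show no bases, so the allele itself could not be checked. Runx3 was listed at 0 in both R122C libraries and at 0, 1.27 and 1.04 log2 CPM in WT replicates 1, 2 and 3. Values are log2 CPM (counts scaled to library size), and a listed 0 stands for anything below 1 CPM, which is no proof of no reads. The groups overlapped for Runx3, since WT replicate 1 was also at 0. Iqgap3, the gene behind the gate, was at 0.22 and 0 in the R122C libraries and at 0 in all 3 WT libraries, and was therefore not tested. Its relative Iqgap2 was at 5.57 and 5.97 in R122C and at 3.50, 5.02 and 5.38 in WT, and Iqgap1 was at 8.65 and 8.45 in R122C and at 7.96, 9.10 and 8.83 in WT. The difference was 1.14 for Iqgap2, or 0.57 without WT replicate 1, and -0.08 for Iqgap1, or -0.42 without it.

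The libraries differed within a genotype as well as between the genotypes. The reads listed for genes came to 180077815 and 246588597 in R122C replicates 1 and 2, and to 61476776, 137556842 and 208352427 in WT replicates 1, 2 and 3. WT replicate 1 stood apart from the other 4 libraries. The colipase gene Clps, which encodes a cofactor of pancreatic lipase, took 11.5% and 12.9% of the listed reads in the R122C libraries, against 32.1%, 9.33% and 9.23% in WT replicates 1, 2 and 3, at a counting error far below these gaps. Over the 9886 genes above 0 in all 5 libraries the median was 4.71 and 4.46 log2 CPM in the R122C libraries, and 3.76, 4.85 and 4.70 in the WT libraries. Tested genes listed at 0 numbered 1620 and 2692 in R122C and 3301, 1287 and 1159 in WT. WT replicate 1 therefore sets the WT mean low for most genes, and list medians that it moves by over 1.5 times are also given without it. Titles carry a code of unstated meaning, and R122C replicate 1 and WT replicate 2 are the only IQ3neg libraries of both genotypes with the same code. Differences within that shared code compare 1 library with 1 library and have no test. The pools also differed in sex-linked transcripts. Xist, the RNA that coats the inactive X chromosome, was at 6.24 and 0 log2 CPM in R122C and at 0, 7.30 and 6.62 in WT, while the Y-linked Ddx3y was at 0 and 6.15 in R122C and at 6.67, 0 and 5.08 in WT. The 6 sex-linked genes had a median difference of -0.71, 0.46 without WT replicate 1 and 1.81 without R122C replicate 1.

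The first question the design asks is whether any gene differs between R122C and WT cells of this fraction. In limma, fitted to all 10 libraries with 4 group means, 0 of the 15314 genes passed an adjusted p of 0.05 in either direction (0%). The smallest adjusted p was 0.0933. At an unadjusted p under 0.05, limma listed 601 genes (3.92% of those tested), 213 of them higher in R122C (1.39%) and 388 lower (2.53%). With the 5 IQ3neg libraries alone it again passed 0 genes, with 504 at unadjusted p under 0.05 (3.29%). Without WT replicate 1 the count was also 0, with 721 at unadjusted p under 0.05 (4.71%). The values of the groups did not overlap for 1172 genes higher in both R122C libraries than in every WT library (7.65%) and for 1162 genes lower (7.59%). A gene listed at 0 in 1 genotype passed the filter only through the other, which fixes its lack of overlap, so these counts are descriptions. The median difference over all tested genes was 0.13 log2 units, R122C minus WT, and -0.19 without WT replicate 1. The standard error of a difference had a median of 0.79 log2 units, and 2 libraries against 3 cannot give an exact permutation p below 0.10 for a single gene. Every gene below is therefore described by its values, and the word "higher" or "lower" states an order of measured values and not a tested change. In bulk RNA, fewer cells of a type and less RNA per cell cannot be told apart.

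**Figure D1:**
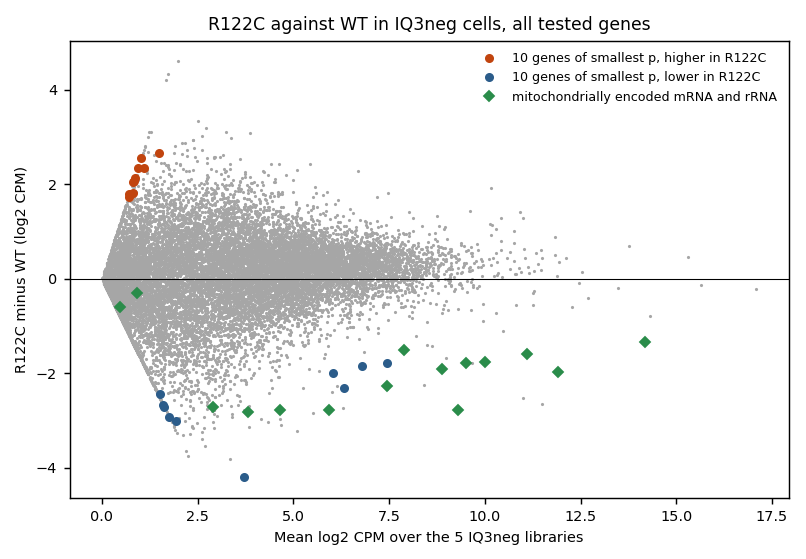
Difference between R122C and WT (log2 CPM, vertical axis) against the mean over the 5 IQ3neg libraries (log2 CPM, horizontal axis) for the 15314 tested genes, 1 grey point a gene. The 20 genes of smallest p are drawn in orange (higher in R122C) and blue (lower), and the 15 mitochondrially encoded transcripts in green, of which 13 had no overlap between the groups. The straight left edges are genes listed at 0 in 1 genotype.

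The 10 named genes of smallest p on the higher side were all low in R122C and at or near the floor in WT. Adgrf5 (chr17:43360451-43459557, GRCm38), an adhesion receptor coupled to G proteins, was at 2.57 and 2.56 log2 CPM in the R122C libraries and listed at 0 in the 3 WT libraries. Pcdhb19, a protocadherin, was at 2.37 and 2.32 in R122C and at 0 in WT. Il12b (chr11:44400063-44414033), the shared subunit of interleukins 12 and 23, was at 1.80 and 1.79 in R122C and at 0 in WT. None of the WT libraries reached 1 CPM for these genes, which passed the filter only through the R122C libraries. A choice by smallest p favours close R122C values, so their closeness here is a description. Rdh16f1 (chr10:127759787-127792694) and Rdh9 (chr10:127776386-127792697), retinol dehydrogenase genes whose coordinates overlap, were at 1.96 and 2.32 and at 1.81 and 2.30 in the R122C libraries, and both were at 0 in WT. Reads of overlapping or near-identical genes cannot be told apart here, so the pair may be 1 signal. Zfp362, a zinc finger gene, was at 1.73 and 2.41 in R122C and at 0 in WT, and Trib3, a pseudokinase of the stress response, was at 1.51 and 1.97 in R122C and at 0 in WT. The other named genes had 1 WT library above the floor.

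Cd200r3, a receptor of the CD200 receptor family, was at 3.02 and 1.97 log2 CPM in R122C, against 0.45, 0 and 0 in WT replicates 1, 2 and 3. Trp53i11, named as a p53-induced gene, was at 3.57 and 2.62 in R122C, against 0, 0 and 1.28 in WT. Adcy4, an adenylyl cyclase that makes cyclic AMP, was at 1.74 and 2.07 in R122C, against 0, 0 and 0.28 in WT. In each of these 3 genes both R122C libraries lay above every WT library. All 10 genes were listed at 0 in every IQ3pos library, so they were measurable in this fraction only. With the WT libraries at the floor no fold change is given.

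On the lower side, 6 of the 10 named genes were at or near the floor in R122C. Snhg11 (chr2:158375638-158386145), a host gene of small nucleolar RNAs, was at 1.65 and 0.75 log2 CPM in R122C and at 5.46, 5.40 and 5.30 in WT. Its difference of -4.19 ± 0.86 (SE) was the lowest of all tested genes, at an adjusted limma p of 0.243, and the 3 WT values lay within a narrow range. Ypel4, a gene of the yippee family, was at 0.25 and 0 in R122C, against 3.27, 2.92 and 3.20 in WT. Ccr2 (chr9:124101950-124113557), the chemokine receptor that marks inflammatory monocytes, was at 0 in both R122C libraries and at 3.60, 2.63 and 2.55 in WT. Jhy, known for its part in building cilia, was at 0 in R122C and at 2.48, 3.04 and 2.64 in WT. Slc43a2, an amino acid transporter, was at 0 in R122C and at 3.15, 2.28 and 2.60 in WT. Pax6 (chr2:105668900-105697364), a transcription factor of endocrine cells, was at 0.11 and 0 in R122C and at 2.27, 3.11 and 2.13 in WT. The WT SD (n = 3) was 0.08 log2 units for Snhg11, 0.18 for Ypel4 and 0.29 for Jhy. It was wider for Slc43a2 at 0.44, Pax6 at 0.53 and Ccr2 at 0.58. A choice by smallest p favours a small spread, and Ccr2, Jhy and Slc43a2 passed the filter only through WT libraries. All 6 genes were listed at 0 in the 5 IQ3pos libraries.

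The remaining 4 lower genes were well expressed in every library and all act on RNA or DNA. Sfpq (chr4:127021324-127037013), a splicing factor and paraspeckle protein, was at 6.46 and 6.30 log2 CPM in R122C and at 8.02, 8.52 and 7.97 in WT. Its means were 6.38 ± 0.11 in R122C and 8.17 ± 0.31 in WT (SD, n = 2 and 3), a difference of -1.79 ± 0.37 (SE) at an adjusted limma p of 0.243. Rbm4b (chr19:4756497-4767065), an RNA-binding splicing regulator, was at 5.88 and 5.47 in R122C and at 7.54, 7.64 and 7.36 in WT. For Sfpq and Rbm4b the R122C libraries lay under every WT library. The coordinates of Sfpq overlap those of the predicted gene Gm12940 (chr4:127033731-127049398), so the pair may be 1 signal. Gm12940 was at 6.39 and 5.67 in R122C and at 8.30, 8.71 and 8.10 in WT. Rbm26 (chr14:105106751-105177327), an RNA-binding protein with zinc fingers, was at 4.98 and 4.69 in R122C and at 6.77, 7.08 and 6.65 in WT, and Zfp263 (chr16:3744093-3750790), a zinc finger transcription factor, was at 5.37 and 4.49 in R122C and at 6.73, 7.55 and 7.44 in WT. In the IQ3pos fraction the same order held for all 4 genes. There Sfpq was at 6.43 and 6.77 in R122C and at 8.65, 8.29 and 8.69 in WT, and Rbm26 was at 4.16 and 4.35 in R122C and at 7.19, 6.57 and 6.95 in WT. Over the 20 named genes the unadjusted limma p ran between 5.09e-05 and 0.000755 and the adjusted p between 0.196 and 0.334. With the 5 IQ3neg libraries alone the unadjusted p of these genes ran between 9.77e-05 and 0.0152. Of the 20, 16 were listed at 0 in all 5 IQ3pos libraries, whose spread of 0 enters the shared error of the fit to 10 libraries. Of all 15314 tested genes, 1428 were listed at 0 there. A spread of 0 lowers the error of such genes, so a choice by smallest p in this fit favours them.

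**Figure D2:**
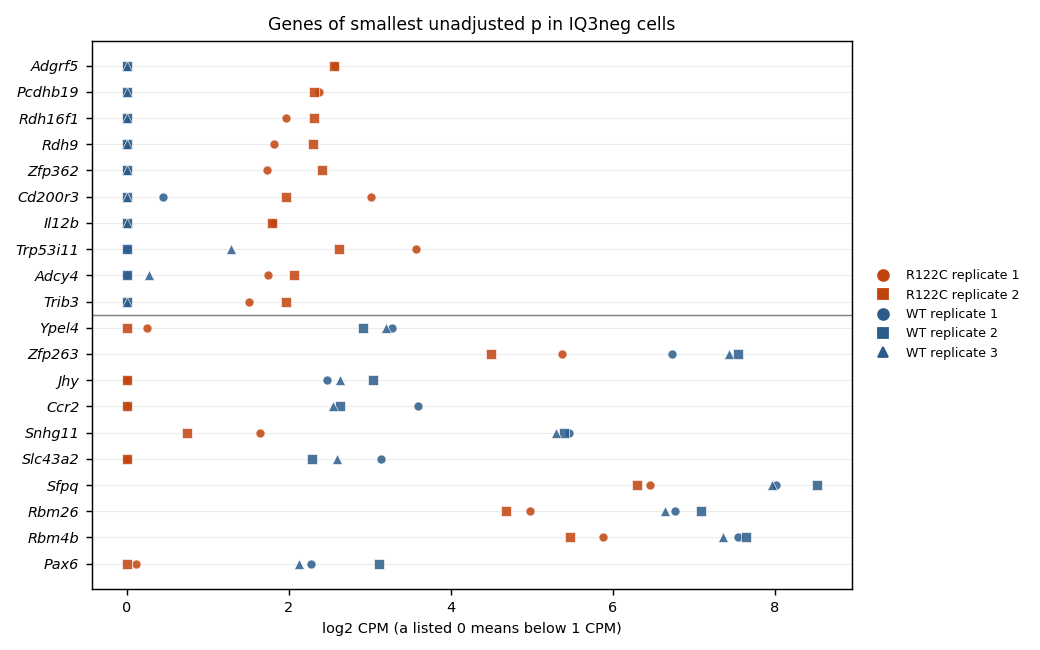
Level of the 20 named genes of smallest p in each IQ3neg library (log2 CPM, horizontal axis), with R122C libraries in orange and WT libraries in blue and the replicate number by symbol. Above the line the 2 R122C points lie right of every WT point (Adgrf5 at 2.57 and 2.56 against 0), and under it they lie left (Sfpq at 6.46 and 6.30 against 8.02, 8.52 and 7.97).

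The short core of the sequence that RUNX proteins bind, TGTGGT, was searched on both strands in RefSeq promoter windows of the build GRCm38.p6, 250 bases before to 50 after each start. Of the 20 named genes, 17 had a window, 7 on the higher and 10 on the lower side. The core was found in any window of a gene for 0 of the 7 and for 2 of the 10, Rbm4b and Slc43a2. Of all 32851 windows 16.8% held it, which is a share of single windows. Some named genes have several windows, so the 2 measures are not alike. The window of Rbm4b is shown as that of a well-expressed gene of the lower side, on the plus strand at chr19:4756275-4756574, with the core in capitals as it reads on the opposite strand.
Rbm4b: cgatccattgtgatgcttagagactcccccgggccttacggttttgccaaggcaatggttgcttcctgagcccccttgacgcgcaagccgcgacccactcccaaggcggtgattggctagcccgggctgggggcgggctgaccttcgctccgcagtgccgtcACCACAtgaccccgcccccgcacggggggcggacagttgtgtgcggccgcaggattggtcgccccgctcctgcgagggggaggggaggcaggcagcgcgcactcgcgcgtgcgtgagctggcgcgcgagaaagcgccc
A match is a run of letters in this window and nothing is known here of binding.

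Some other RNAs that stay in the nucleus or encode splicing factors had the same order as Sfpq. The genes of this paragraph come from lists made after their values were seen. Malat1, a long RNA of nuclear speckles, was at 10.70 and 9.12 log2 CPM in R122C and at 13.20, 12.00 and 12.46 in WT, a difference of -2.64 ± 0.62 (SE) with an adjusted limma p of 0.334. Neat1, the RNA around which paraspeckles form, was at 7.98 and 6.13 in R122C and at 8.59, 9.85 and 9.47 in WT. Kcnq1ot1, an imprinted nuclear RNA, was at 4.11 and 3.63 in R122C and at 5.99, 6.58 and 5.97 in WT. For all 3 RNAs the R122C libraries lay under every WT library. Srsf2, a splicing factor, was at 8.89 and 8.32 in R122C and at 9.91, 10.65 and 10.60 in WT, and Clk1, a kinase of splicing factors, was at 6.51 and 6.51 in R122C and at 7.01, 7.99 and 7.97 in WT. The order was not shared by the whole class. Of 15 tested genes of splicing factors and their kinases, 2 lay lower without overlap (7.59% of all genes) and 0 higher (7.65% of all genes). The median of this list was -0.02, or -0.37 without WT replicate 1 and 0.08 without WT replicate 2. Of 15 tested paraspeckle and nuclear-retained genes 6 lay lower without overlap (7.59% of all genes) and 1 higher (7.65% of all genes). Their median was -0.27, or -0.60 without WT replicate 1. The paraspeckle proteins Nono, at 7.32 and 7.54 in R122C and 5.94, 7.30 and 7.65 in WT, and Pspc1, at 3.62 and 3.21 in R122C and 2.23, 3.57 and 3.03 in WT, overlapped. Within the shared code the difference was -1.30 for Malat1, -1.87 for Neat1, -2.07 for Sfpq and -1.77 for Srsf2. Srsf2 overlaps Mettl23 in its coordinates and Malat1 overlaps Gm37376, so each of these pairs may also be 1 signal. Over the 5 IQ3neg libraries the difference was -1.67 for Mettl23 and -2.52 for Gm37376.

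Transcripts of the mitochondrial genome, which encodes proteins of the respiratory chain and the ribosomal RNAs of the organelle, were lower in R122C. All 15 tested members of the list had negative differences, 13 of them without overlap (7.59% of all genes) and 12 at an unadjusted limma p under 0.05 (2.53% of all genes), and none passed adjustment. The list median was -1.90, against 0.13 for all genes. It was -1.53 without WT replicate 1, -1.04 without R122C replicate 2 and -2.72 without R122C replicate 1. mt-Co1, a subunit of cytochrome c oxidase, was at 11.65 and 9.80 log2 CPM in R122C and at 13.36, 12.25 and 12.46 in WT. mt-Nd2, a subunit of complex I, was at 8.32 and 7.16 in R122C and at 10.10, 9.35 and 9.48 in WT, a difference of -1.90 ± 0.45 (SE) with an adjusted p of 0.334. mt-Cytb, the cytochrome b of complex III, was at 13.92 and 12.84 in R122C and at 15.72, 14.08 and 14.39 in WT. R122C replicate 2 was the lowest library for each of these 3, and R122C replicate 1 was closer to the WT libraries. The large ribosomal RNA mt-Rnr2 was at 8.37 and 6.89 in R122C and at 12.06, 9.12 and 10.02 in WT, and the small mt-Rnr1 overlapped at 7.17 and 5.00 in R122C and 9.93, 7.01 and 8.10 in WT. Within the shared code the list median was -0.69. The 78 tested nuclear subunits of the respiratory chain had a median of 0.25, or -0.05 without WT replicate 1, -0.18 without R122C replicate 2 and -0.42 within the shared code. The 81 cytosolic ribosomal protein genes had a median of 0.30, or -0.00 without WT replicate 1, -0.16 without R122C replicate 2 and -0.35 within the shared code. Copies of mitochondrial sequence in the nuclear genome share reads with these transcripts, for example Gm10925 at 4.83 and 2.79 in R122C and 7.82, 5.54 and 6.60 in WT, so the counts of single members are uncertain. In IQ3pos the list median was -2.82. The nuclear-retained RNAs above were lower in the same libraries, and their part in this result was not tested.

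**Figure D3:**
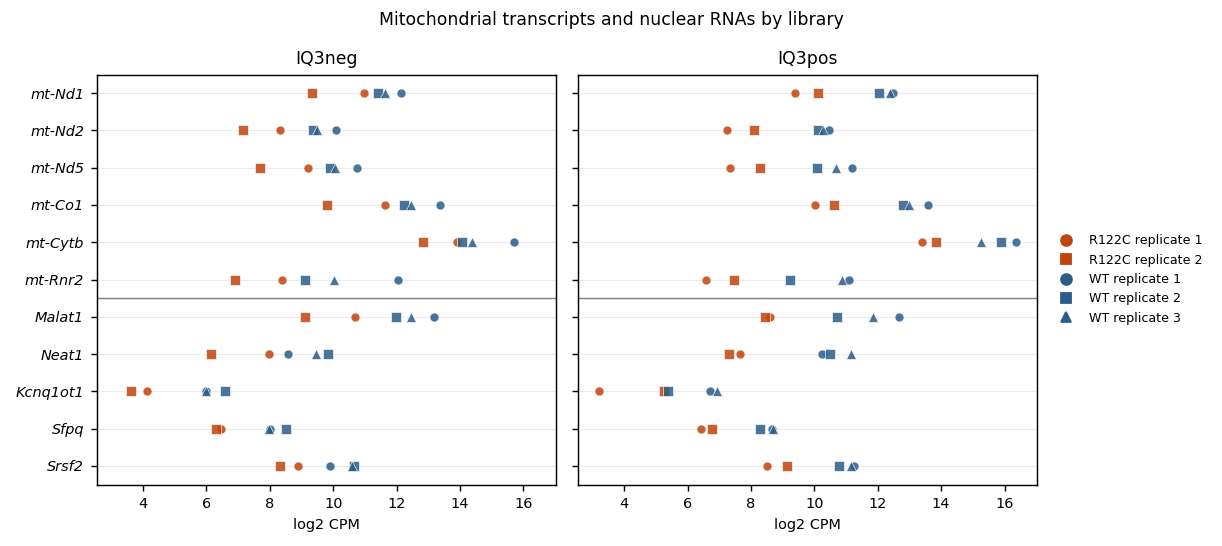
Levels of 6 mitochondrial transcripts (above the line) and 5 nuclear RNAs or splicing genes (under it) in each library of IQ3neg (left panel) and IQ3pos (right panel), in log2 CPM, with R122C in orange and WT in blue. In IQ3neg the R122C points lie left of the WT points for all 11 genes, as for mt-Nd2 at 8.32 and 7.16 against 10.10, 9.35 and 9.48.

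Some plasma cell transcripts were higher in both R122C libraries and others were not. Jchain, which joins the chains of secreted IgA and IgM, was at 8.14 and 8.27 log2 CPM in R122C and at 7.61, 6.01 and 5.83 in WT. Igkc, the kappa light chain constant segment, was at 9.24 and 9.87 in R122C and at 8.89, 8.24 and 7.53 in WT. Mzb1, a chaperone of antibody secretion, was at 1.11 and 2.01 in R122C and at 0.02, 0 and 0 in WT. The R122C libraries lay above every WT library for these 3 genes. Ighm, the constant segment of IgM, was at 4.85 and 0 in R122C and at 2.83, 3.98 and 3.46 in WT, and the light chain segment Iglc1 was at 6.22 and 1.68 in R122C and at 7.01, 6.27 and 1.87 in WT. Both overlapped, with R122C replicate 2 under every WT library. The syndecan gene Sdc1, which also marks epithelium, was at 5.90 and 5.25 in R122C and at 1.12, 4.68 and 4.06 in WT. Of 264 immunoglobulin segments in the table, 85 were tested, some of which passed the filter only through the R122C libraries. Igkv8-30, at 5.07 and 3.61 in R122C and 0 in WT, had the smallest p of the whole comparison (adjusted p 0.0933). The segments summed to 2048 and 2217 CPM in R122C, and to 1460, 960 and 415 CPM in WT replicates 1, 2 and 3. Segments of 1 family are near-identical, and variable segments can differ from pool to pool, so single segments are uncertain. Of the 13 tested genes of the plasma cell list, 9 had positive and 4 negative differences. The median difference was 1.33, but -0.11 without R122C replicate 1, and the median level was 4.85 and 2.01 log2 CPM in R122C and 2.83, 3.98 and 2.77 in WT, so R122C replicate 2 lay under all WT libraries. The defining plasma cell factors Irf4, Prdm1 and Tnfrsf17 were not tested, since fewer than 2 libraries had them above the floor. In WT replicate 1 Irf4 was at 2.60 and Tnfrsf17 at 1.26, and both were at 0 in every other IQ3neg library. Prdm1 was at 0 in all of them.

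Several myeloid markers were lower in R122C. Of 32 immune markers 20 were tested, 3 with positive and 17 with negative differences, and their median was -1.37, or -1.10 without WT replicate 1. Tyrobp and Adgre1 below passed the filter only through WT libraries, so these values are a description. Lyz2, the lysozyme of macrophages, was at 4.50 and 1.85 log2 CPM in R122C and at 8.19, 6.42 and 4.57 in WT. Tyrobp, a signalling adaptor of myeloid cells, was at 0 in both R122C libraries and at 3.35, 2.61 and 0.999 in WT. Adgre1, the macrophage antigen of the adhesion receptor family, was also at 0 in R122C and at 2.45, 1.18 and 1.80 in WT. The WT libraries varied among themselves, with replicate 1 highest for all 3. Ptprc, the leukocyte gene for CD45, went the other way at 5.46 and 5.47 in R122C and 5.23, 4.53 and 4.14 in WT. The summed level of the 32 markers was 148 and 77.7 CPM in R122C and 624, 263 and 144 CPM in WT. The T cell genes Cd3e, Trac and Cd8a were below the test filter. Immune RNA was thus present in libraries of both genotypes, and its part in the values of Ccr2 and Il12b was not tested.

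**Figure D4:**
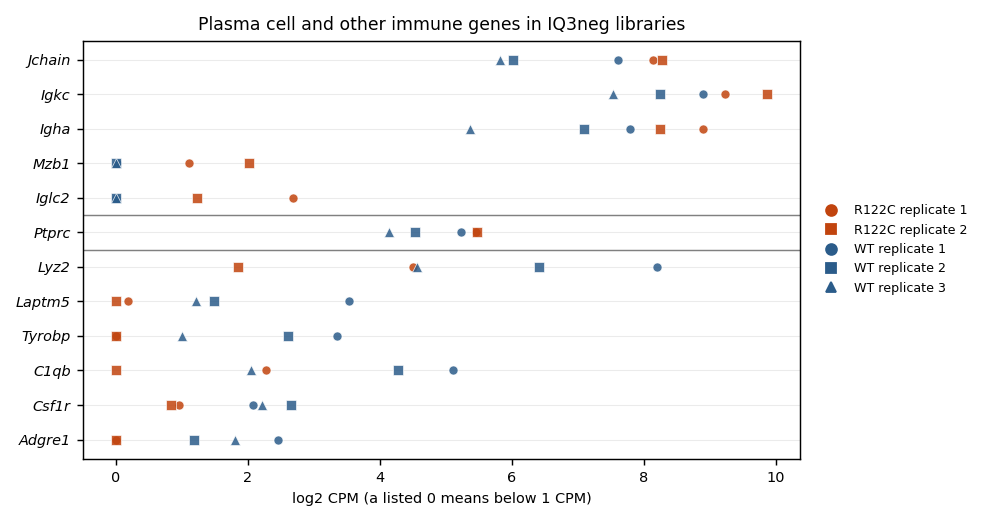
Level of plasma cell genes (top), Ptprc (middle) and myeloid genes (bottom) in each IQ3neg library (log2 CPM), with R122C in orange and WT in blue. Jchain lies at 8.14 and 8.27 in R122C, right of all WT points, whereas Tyrobp lies at 0 in both R122C libraries, left of all WT points.

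The RUNX family and its partners overlapped between the groups, apart from 3 cofactors. Runx1, the Runt-domain paralogue, was at 4.99 and 5.60 log2 CPM in R122C and at 1.83, 5.42 and 5.23 in WT, a difference of 1.14 that becomes -0.03 without WT replicate 1. Runx2 was above 0 in WT replicate 3 alone of the 5 libraries, at 1.23. Cbfb, the partner subunit, was at 4.74 and 5.22 in R122C and at 4.29, 5.21 and 5.41 in WT. Both genes overlapped between the groups. Ep300, a histone acetyltransferase that works with RUNX proteins, was at 0 in both R122C libraries and at 2.07, 3.02 and 2.94 in WT. The effectors of the Hippo pathway lay slightly the other way, Tead1 at 4.04 and 3.79 in R122C against 3.44, 3.08 and 3.50 in WT, and Yap1 at 3.51 and 3.45 in R122C against 3.40, 3.10 and 2.88 in WT. Of 14 tested members, 2 were higher without overlap (7.65% of all genes) and 1 lower (7.59% of all genes), and the median was -0.15, or -0.50 without WT replicate 1 and 0.33 without R122C replicate 2.

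Genes reported elsewhere as RUNX3 targets had a median close to the 0.13 of all genes. Of 13 tested, 1 was higher without overlap (7.65% of all genes) and 3 were lower (7.59% of all genes), with a median of 0.26, or -0.08 without WT replicate 1. Cdkn1a, the cell cycle inhibitor p21, was at 6.42 and 5.83 log2 CPM in R122C and at 7.35, 6.38 and 6.40 in WT. Bcl2l11, the pro-apoptotic factor BIM, was at 3.49 and 2.21 in R122C and at 0, 3.68 and 1.61 in WT. Both genes overlapped between the groups. Among the 4 without overlap, Foxo3, a forkhead factor, was at 6.01 and 6.51 in R122C and at 7.01, 7.15 and 6.95 in WT. Vegfa, the vascular growth factor, was at 2.32 and 2.52 in R122C and at 3.31, 4.07 and 2.73 in WT. The integrin Itgae was at 0.17 and 0 in R122C and at 0.41, 0.70 and 0.43 in WT, and the kinase gene Akt1 was at 4.12 and 4.47 in R122C and at 0.74, 3.24 and 4.07 in WT. TGF-beta and BMP targets had a median of 0.56 over 15 tested genes, or -0.06 without WT replicate 1, and WNT targets a median of 0.44 over 13, or -0.09 without it. In the shared code both medians were -0.09.

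The corpus lineage genes identified the tissue in every library and the defining genes mostly overlapped between the genotypes. Pgc, the pepsinogen gene of chief cells, was at 16.33 and 14.85 log2 CPM in R122C and at 15.15, 15.36 and 14.88 in WT. Cblif, gastric intrinsic factor, was at 13.66 and 13.06 in R122C and at 13.01, 13.97 and 13.68 in WT. Muc5ac, the mucin of pit cells, was at 7.91 and 7.52 in R122C and at 5.24, 7.35 and 8.32 in WT. The groups overlapped for these 3 genes. Atp4b, a subunit of the acid pump of parietal cells, was at 9.41 and 8.87 in R122C and at 8.23, 8.79 and 8.86 in WT, which just misses an overlap. Epcam, the antigen of the sort, was at 8.87 and 8.88 in R122C and at 7.64, 8.74 and 9.02 in WT. Its list, the epithelial genes of the sort, had a median of 0.65 over 11 tested genes, or 0.11 without WT replicate 1. Of the pit list 0 of 15 tested genes were free of overlap, and of the chief list 0 of 10. Of the parietal list 2 of 17 were higher without overlap and 0 lower. Over all genes these shares were 7.65% higher and 7.59% lower. The list medians without WT replicate 1 were 0.11 for pit, -0.10 for chief, 0.03 for parietal and -0.09 for tuft genes, against 0.75, 0.43, 0.50 and 0.45 with it. Without R122C replicate 1 the chief median was -0.25.

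Within the mucous neck list, 2 of 10 genes were higher without overlap (7.65% of all genes), and the median was 1.08, or 0.47 without WT replicate 1. Dmbt1, a scavenger protein of mucosal surfaces, was at 6.62 and 5.54 log2 CPM in R122C and at 2.50, 4.10 and 4.35 in WT. Galnt6, an enzyme that starts mucin-type glycans, was at 5.77 and 5.52 in R122C and at 2.54, 4.55 and 4.60 in WT. For both genes the R122C libraries lay above every WT library. The mucin Muc6 was at 9.89 and 9.53 in R122C and at 8.00, 9.79 and 10.32 in WT, and the trefoil peptide Tff2 was at 10.12 and 11.71 in R122C and at 8.66, 9.83 and 11.09 in WT, so the defining genes of the lineage overlapped.

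Enteroendocrine genes were the lineage with the lowest median, -0.28 over 30 tested genes, or -0.42 without WT replicate 1 and -0.04 without R122C replicate 2. Of these, 5 were lower without overlap (7.59% of all genes) and 1 higher (7.65% of all genes). Transcription factors and a hormone were among them. Beside Pax6, Rfx6 was at 4.08 and 2.62 log2 CPM in R122C and at 5.51, 5.48 and 4.86 in WT. Both are regulators of endocrine cell fate. Sst, the somatostatin of D cells, was at 12.04 and 11.79 in R122C and at 13.06, 12.39 and 12.07 in WT, and Scg5, a chaperone of secretory granules, was at 7.65 and 7.27 in R122C and at 7.74, 8.09 and 7.86 in WT. Other products of these cells overlapped. Ghrl, ghrelin, was at 12.45 and 12.34 in R122C and at 12.95, 12.59 and 11.92 in WT. Chga, chromogranin A, was at 11.56 and 10.57 in R122C and at 11.16, 11.67 and 11.27 in WT. Gast, the gastrin of antral G cells, ranged most widely, at 6.14 and 4.78 in R122C and 0, 9.60 and 3.61 in WT. The part of antral cells in these results was not tested. The antral list had a median of 0.71 over 7 tested genes, or 0.06 without WT replicate 1.

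**Figure D5:**
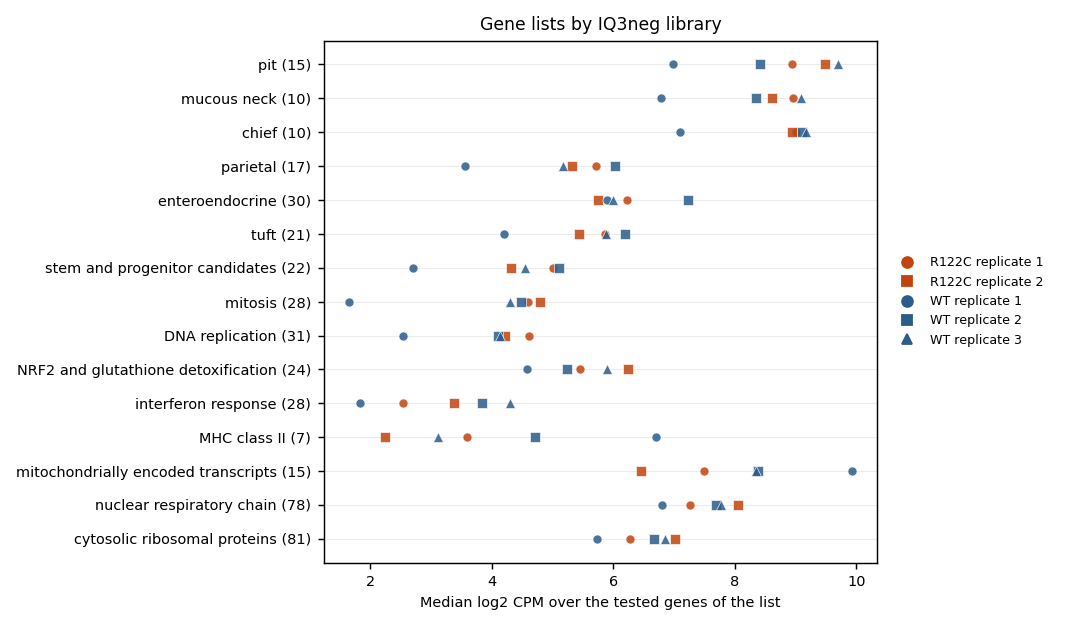
Median level of the tested genes of 15 lists in each IQ3neg library (log2 CPM), with R122C in orange and WT in blue and the number of tested genes in brackets. WT replicate 1 (blue circles) is the lowest library for most lists and the highest for MHC class II and the mitochondrially encoded transcripts, where the 2 R122C libraries lie at 7.50 and 6.45 against 9.93, 8.38 and 8.35.

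Genes of mitosis were higher in R122C, with a size that rests on WT replicate 1. All 28 tested members had positive differences and 14 were higher without overlap (7.65% of all genes), with a median of 1.35, or 0.49 without WT replicate 1 and 0.61 within the shared code. Bub1, a kinase of the spindle checkpoint, was at 4.14 and 4.79 log2 CPM in R122C and at 0, 3.22 and 2.47 in WT. Ccnb1, cyclin B, was at 6.33 and 6.62 in R122C and at 1.81, 5.13 and 5.61 in WT. Kif20b, a kinesin of cell division, was at 4.34 and 4.32 in R122C and at 1.80, 2.38 and 3.61 in WT. WT replicate 1 was the lowest library for each of them, and both R122C libraries were also above the other WT libraries. The proliferation marker Mki67 overlapped at 5.72 and 6.17 in R122C and 4.88, 5.94 and 5.72 in WT, as did Top2a at 6.13 and 6.04 in R122C and 4.79, 6.39 and 6.26 in WT. DNA replication genes had a median of 0.77 over 31 tested genes, or 0.23 without WT replicate 1, with 6 higher without overlap (7.65% of all genes). The MYC targets and ribosome biogenesis list had a median of 0.68 over 24 genes, or -0.01 without it. Stem and progenitor candidates had a median of 0.55 over 22, or 0.04 without it. Among these, Lgr5, a receptor of stem cells and chief cells, was at 5.01 and 2.94 in R122C and 0, 4.48 and 3.36 in WT, and Lrig1, a marker of progenitors, was at 4.69 and 3.32 in R122C and 2.37, 4.85 and 4.22 in WT, so both overlapped.

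Small proline-rich and detoxification genes had medians above the 0.13 of all genes. Sprr2a3, a cross-linked protein of epithelial barriers, was at 7.78 and 8.35 log2 CPM in R122C and at 4.08, 6.31 and 6.96 in WT. Sprr2a1 was at 6.33 and 7.66 in R122C and at 5.10, 4.37 and 5.99 in WT, and Sprr2a2 at 5.72 and 7.69 in R122C and at 5.14, 4.60 and 6.07 in WT. Sprr2a1 and Sprr2a3 had no overlap between the groups, Sprr2a2 did, and the 3 are near-identical copies whose reads cannot be told apart. The list of small proline-rich genes had 4 tested members of 15, with a median of 1.64, or 0.81 without R122C replicate 2. Of the 24 tested targets of NRF2, the factor that switches on defence against oxidants, 22 had positive differences and 5 were higher without overlap (7.65% of all genes). Their median was 1.02, or 0.40 without WT replicate 1 and 0.56 without R122C replicate 2. The aldehyde dehydrogenase Aldh3a1 was at 6.16 and 6.37 in R122C and at 4.59, 4.87 and 5.62 in WT. Gsta2, a glutathione transferase, was at 3.35 and 3.98 in R122C and at 2.00, 1.34 and 2.93 in WT. Ugdh, which makes the sugar for glucuronidation, was at 7.98 and 8.68 in R122C and at 6.04, 7.14 and 7.87 in WT. Nqo1, a quinone reductase often used to read this pathway, overlapped at 6.54 and 7.37 in R122C and 4.02, 5.96 and 6.86 in WT.

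Interferon and antigen presentation genes were lower on the median and varied widely between pools. The interferon list had a median of -0.65 over 28 tested genes, -1.15 without WT replicate 1 and -0.96 within the shared code, with 1 gene lower without overlap (7.59% of all genes). Without R122C replicate 1 the median was -0.23. Ifit1, an antiviral protein induced by interferon, was at 1.18 and 4.68 log2 CPM in R122C and at 1.99, 5.20 and 5.63 in WT. Stat2, which carries the interferon signal, was at 3.03 and 0 in R122C and at 1.89, 4.60 and 4.06 in WT. Both genes overlapped, with WT replicates 2 and 3 above the R122C libraries. MHC class II genes had a median of -1.22 over 7 genes, or -0.30 without WT replicate 1. The invariant chain Cd74 was at 7.98 and 6.94 in R122C and at 10.51, 8.79 and 6.73 in WT. The MHC class I list had a median of -0.18 over 10 genes, or -0.52 without WT replicate 1, 0.01 without R122C replicate 2 and 0.02 without WT replicate 2. B2m, its shared subunit, was at 8.72 and 9.35 in R122C and at 8.30, 9.52 and 9.72 in WT.

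Stress and metabolic lists had medians between -0.25 and 0.59. Immediate early and dissociation genes had a median of -0.25 over 24 tested genes, or -0.48 without WT replicate 1 and 0.38 without R122C replicate 2. Fos, an early response factor, was at 9.58 and 8.59 log2 CPM in R122C and at 8.71, 9.58 and 9.61 in WT. Atf3, a stress factor, was at 6.30 and 5.60 in R122C and at 6.74, 7.12 and 7.03 in WT, with no overlap. The unfolded protein response had a median of 0.19 over 23 genes, cholesterol synthesis 0.59 over 21 (5 higher without overlap, against 7.65% of all genes), and glycolysis and hypoxia 0.45 over 22, and without WT replicate 1 these were -0.08, 0.08 and -0.02. The p53 target list had a median of 0.02 over 17 genes, the cyclins and cell cycle inhibitors 0.51 over 17, metaplasia genes 0.54 over 15 and intestinal genes 0.57 over 13. Without WT replicate 1 these 4 medians were -0.27, 0.07, 0.14 and -0.04.

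Markers of endothelial, fibroblast and muscle, erythroid and squamous cells were low, unlike the plasma cell transcripts above. Of 11 endothelial genes 3 were tested, and the defining Pecam1, Cdh5 and Kdr were below the test filter. Of 16 fibroblast and muscle genes 4 were tested, and the collagens Col1a1, Col1a2 and Col3a1 were below it. The summed level of the fibroblast and muscle list was 11.5 and 1.04 CPM in R122C and 46.4, 6.19 and 9.50 CPM in WT, and that of the endothelial list was 19.4 and 11.0 CPM in R122C and 10.4, 25.4 and 8.16 CPM in WT. Of 12 squamous forestomach genes 2 were tested, with a median difference of -0.34, and of 7 erythroid genes 2, with a median of -1.37, or -0.82 without WT replicate 1. The endothelial median was 0.95 and the fibroblast and muscle median -0.91, or -0.30 without WT replicate 1. Pancreatic acinar genes summed to a large share of all reads through Clps, which was at 16.87 and 17.04 log2 CPM in R122C and at 18.35, 16.58 and 16.56 in WT, a difference of -0.21 ± 0.95 (SE). The trypsinogen Try4 was at 8.40 and 7.69 in R122C and at 8.42, 8.91 and 7.81 in WT. Over 18 tested genes the pancreatic list had a median of 0.06, or -0.05 without WT replicate 1 and -0.17 without R122C replicate 1.

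Whether the genotype difference depended on the fraction was tested as an interaction. In limma 0 genes passed (0%), with 398 at an unadjusted p under 0.05 (2.6% of those tested), so no gene was shown to differ between R122C and WT in IQ3neg cells to another extent than in IQ3pos cells. Side by side, the difference of Sfpq was -1.79 in IQ3neg and -1.94 in IQ3pos, and that of Malat1 -2.64 and -3.22. That of mt-Nd2 was -1.90 in IQ3neg and -2.60 in IQ3pos, and that of Lyz2 -3.22 and -4.33. Other genes took opposite signs in the 2 fractions. Mdm2 was at 0.65 in IQ3neg and -1.24 in IQ3pos, and Jchain, above 0 in 1 IQ3pos library, at 1.72 and -1.23. Of the 20 named genes, 16 were listed at 0 throughout IQ3pos and have no difference there to set beside. The sorted fractions of a genotype may come from the same mice, which the labels do not say.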

How the data were processed

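RNA was sequenced from EpCAM-sorted corpus cells of pooled mice, in 10 libraries of 2 genotypes and 2 fractions. Libraries were PCR-amplified for sequencing, per the labels' protocols. Reads were handled with STAR 2.7.1a, featureCounts, Subread 2.0.0 and edgeR on GRCm38 (mm10), per the submitters' processing notes, which give neither their roles nor the strand setting. The authors deposited 1 table of log2 CPM per gene, in which values below 1 CPM are listed at 0. Each CPM value came out as a whole number of reads within 0.05 of a read for 100% of values, so depth could be recovered, and it is given as listed reads. Wilson 95% intervals cover counting error only. Of 55276 gene entries, 26 have symbols that read as dates, and 53362 matched the annotation used for coordinates.

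The deposited log2 values were tested without a pseudocount in limma 3.58.1 (R 4.3.3), with 4 group means, a mean-variance trend and Benjamini-Hochberg adjustment over 15314 genes, at an adjusted p under 0.05. The interaction came from the same fit. The code was tested on simulated data. Whether the fractions of a genotype share mice is not stated, and each p rests on how far libraries of pooled mice differ, which may be technical. Named genes are those past the threshold, filled to 10 per direction by smallest unadjusted p, leaving out date-like symbols, predicted genes, immunoglobulin and T cell receptor segments and histone cluster genes. Genes of 41 lists were described by counts and medians. The members and lists were chosen with earlier results of these data known, and 2 lists (nuclear-retained RNAs and SR splicing factors) were added after values were seen. A count test with edgeR was not used, since values below 1 CPM are absent from a log2 table.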

Additional observations from a re-analysis of the deposited data

How the results depend on the processing

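Over 16 alternatives, 15 of them planned, the count of genes past the threshold stayed at 0 in both directions except in 3. With genes above 0 in at least 1 library, 14 were higher and 0 lower, 12 of the 14 listed at 0 outside the R122C IQ3neg libraries. Leaving out 1 library gave 0 to 14 higher and 0 to 1 lower. Without R122C replicate 1 the counts were 11 and 1, and without R122C replicate 2 they were 14 and 0, with 8 of 12 and 9 of 14 listed at 0 in all other libraries. Both settings leave R122C IQ3neg with 1 library, which is assumed to vary like the other groups, so these counts are no support for any gene. The interaction gave 2 genes, Gc and Ccn3, without replicate 1 of WT in both fractions, and 0 otherwise. The cause was not tested.

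With the replicate number as a block 0 genes passed in either direction (796 at unadjusted p under 0.05). Deviations of same-numbered libraries from their group means had correlations of -0.00430 and -0.165. With 2 R122C libraries these deviations are mirror images, which ties the sign of each value to the pairing. The correlations therefore cannot show whether same-numbered libraries are related. Other settings also gave 0, with 207 genes at unadjusted p under 0.05 among genes above 0 in all 5 libraries, 868 with libraries centred on their medians, and 946 with voom on recovered reads, an alternative chosen after seeing the data. A count test with edgeR was not run. None of the 65 genes described for their role passed the threshold as reported, and 38 of them took the opposite sign under at least 1 alternative, in 98 of 1031 values. Several list medians also changed sign without 1 library. Values below 1 CPM are not resolved, and 2 against 3 libraries limit the precision of every gene.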
